A study of Hydra vulgaris with 36 samples.

Results

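A set of 165 Hydra genes had lower transcript levels after the gamma-secretase inhibitor DAPT by at least 1 log2 unit at each of 3 times, without reaching the deepest reductions at all 3. They were chosen by the measured differences themselves, among the 12410 genes of the deposited table. For each library, counts were divided by the column total and scaled to CPM (counts-per-million), converted to log2(CPM + 0.5) and centred on the median gene of that library. Members had a mean CPM over the 36 libraries of at least 2. Their mean centred level was lower in DAPT than in DMSO by at least 1 at every time. At least 1 of the 3 differences also had to stop short of a second, deeper border. That border was 29.7% of the control level on this scale, on which 0.5 CPM is added to each value. Of the 10405 genes with a mean CPM of at least 2, 165 were members and a further 64 lay at or beyond that deeper border at all 3 times. The differences between DAPT and DMSO therefore chose the members, and they are given below as a description with no test.

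The animals were whole Hydra vulgaris polyps of the Basel strain, starved for 24 h before an incubation of 48 h. Treated animals were kept in 20 µM DAPT with 1% DMSO, and control animals in 1% DMSO alone, with solutions renewed every 12 h. Animals were taken when the incubation ended (0 h) or, after a change to 1% DMSO, 3 h or 6 h later, so that all 6 groups had been in DMSO and only the DAPT animals of 0 h were taken in the presence of the inhibitor. Each group held 6 libraries, labelled as biological replicates, with about 25 pooled animals per library, and the aim stated for the series was to identify transcriptional targets of Notch signalling.

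Notch is a receptor that is cut by gamma-secretase after it binds a ligand on a neighbouring cell, and the released intracellular part enters the nucleus and activates transcription together with a DNA-binding partner. DAPT blocks this cut. In Hydra, DAPT treatment is known to affect the differentiation of nematocytes, the stinging cells that are replaced continuously from interstitial stem cells, and the formation of boundaries and heads. Gamma-secretase also cuts other membrane proteins, so a lower transcript level after DAPT is not by itself a response to Notch. The genes are identified only by number in a de novo transcript assembly. None of the 12410 identifiers was found in the RefSeq gene table used here (0 matches), so the members are described by level, time course and behaviour between replicates, without names or roles.

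The total counts ranged from 5692414 to 15310480 per library. Columns carried the letter S or P for the treatment, which were read as DMSO and DAPT because each letter occurs in only that word. If the letters meant the reverse, the members would be genes higher after DAPT, and the time courses given for each treatment would belong to the other. A pair of DMSO libraries stood apart in ways that bear on the members. Replicate 4 of DMSO at 6 h had the lowest normalisation factor of all libraries (0.626 by the trimmed mean of M-values, TMM), and replicate 2 of DMSO at 0 h had the lowest share of counts in the members among the DMSO libraries (4.29%). The counts of members without overlap between treatments, and of members called from 0 h to 6 h in DAPT, are given with and without them.

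The members together took a sizeable part of the transcripts sequenced, and a smaller part after DAPT. In DMSO at 0 h they held 8.92 ± 3.33% (SD, n = 6) of all counts, with values from 4.29% to 13.6%. In DAPT at 0 h they held 3.15 ± 0.708%, from 2.48% to 4.10%, so that the highest DAPT library was below the lowest DMSO library. The later shares were, at 3 h, 8.29 ± 3.43% in DMSO (4.77% to 14.7%) and 3.30 ± 1.40% in DAPT (1.53% to 5.35%), and, at 6 h, 9.44 ± 3.83% (4.69% to 14.5%) in DMSO and 4.10 ± 1.93% (2.22% to 7.44%) in DAPT. The groups overlapped at these later times. Since whole animals were sequenced, fewer cells of a type and less RNA per cell cannot be told apart in any of these values.

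The share was carried by few genes. The 6 members with the most reads held between 59.9% and 85.4% of the counts of all 165 members in a library. A measure that gives each gene the same weight separated the groups at every time. The median centred level of the 165 members in the control libraries was 1.17 ± 0.275, 1.11 ± 0.108 and 1.00 ± 0.199 at the successive times (log2 units, SD, n = 6). In the DAPT libraries the values were -0.47 ± 0.206, -0.29 ± 0.058 and -0.50 ± 0.259, with no overlap between treatments at any time. This separation follows from how the members were chosen.

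**Figure D1:**
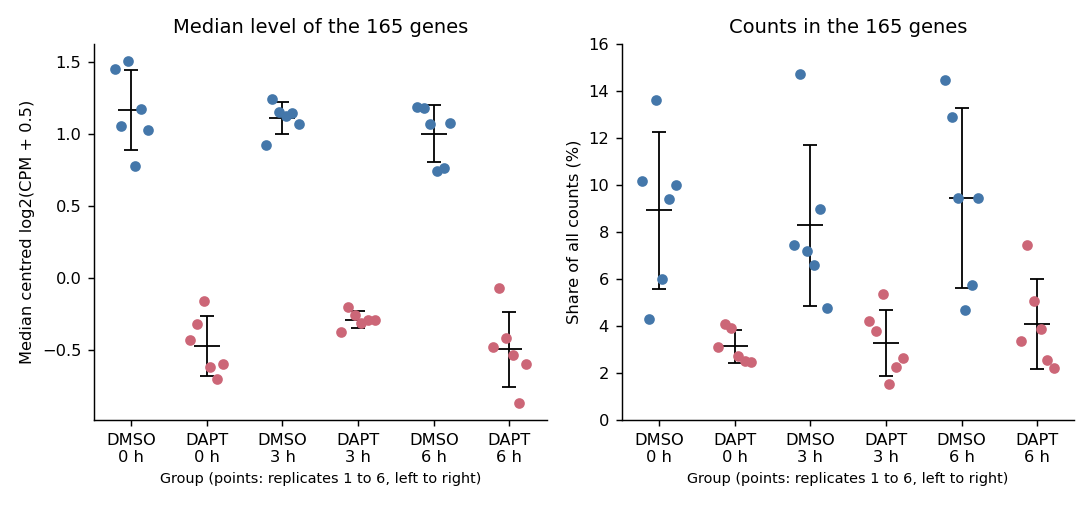
Left, the median centred log2(CPM + 0.5) of the 165 members in each of the 36 libraries. Right, the percentage of each library's counts that fell in the members; points are replicates 1 to 6, horizontal lines are means and bars are SD (n = 6), and the DAPT points lie below the DMSO points at all 3 times on the left, while on the right the groups overlap at 3 h and 6 h.

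On the centred log2 scale the members had median differences of -1.57, -1.47 and -1.44 at the successive times. On that scale, with 0.5 CPM added, these correspond to 33.7%, 36.03% and 36.9% of the control level. The added 0.5 CPM makes reductions of genes with few reads shallower. The median edgeR log2 fold changes of the members were -1.78, -1.60 and -1.58. The quartiles were -1.76 and -1.32 at 0 h, -1.69 and -1.26 at 3 h, and -1.67 and -1.21 at 6 h. All genes with a mean CPM of at least 2 had medians of 0.05, 0.07 and 0.05, and the 64 genes beyond the deeper border had medians of -2.69, -2.57 and -2.61. For 93 members none of the 3 differences reached the deeper border, for 41 members 1 did, and for 31 members 2 did. The range of a member's 3 differences was under 0.5 for 111 members and 1 or more for 4 members. Its median was 0.39, beside 0.30 for all genes with a mean CPM of at least 2 and 0.35 for the 64 genes. The rule holds all 3 differences of a member at -1 or lower, which limits this range. The largest reduction was at 0 h for 75 members, at 3 h for 33 and at 6 h for 57.

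The borders cut through a continuous distribution. Just inside the border at -1 were TRINITY_DN42129_c0_g1, TRINITY_DN7555_c0_g1 and TRINITY_DN2705_c0_g1, whose smallest reductions were -1.002, -1.009 and -1.011. Just outside it were TRINITY_DN15895_c0_g1, TRINITY_DN905_c0_g1 and TRINITY_DN10725_c0_g1, at -0.999, -0.999 and -0.994. At the other border the nearest members were TRINITY_DN14656_c0_g1 (-1.749), TRINITY_DN3114_c0_g2 (-1.738) and TRINITY_DN39848_c0_g1 (-1.738), and the nearest genes beyond it were TRINITY_DN39863_c0_g1 (-1.769), TRINITY_DN244_c0_g2 (-1.784) and TRINITY_DN16100_c0_g1 (-1.805). These steps across the borders are far smaller than the spread between replicates.

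**Figure D2:**
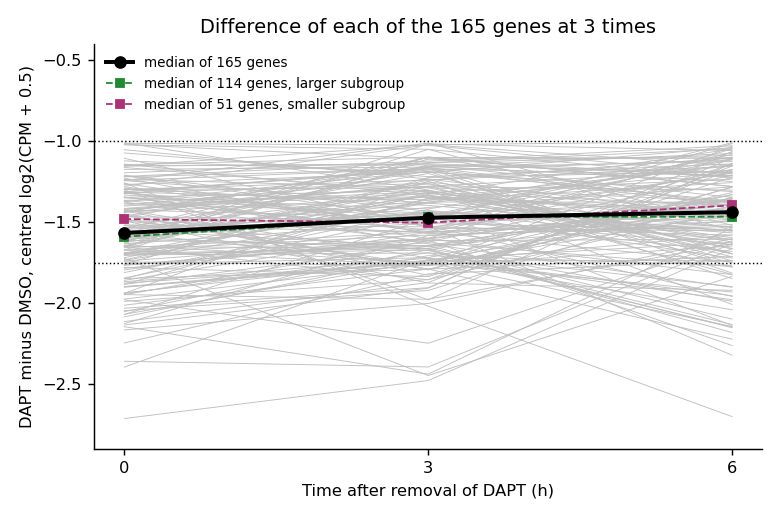
Difference between DAPT and DMSO in mean centred log2(CPM + 0.5) for each of the 165 members (grey lines) at 0, 3 and 6 h after removal of DAPT, with both borders of the rule dotted. The median of all members (black) was -1.57, -1.47 and -1.44, and the medians of the 114 and 51 genes of both subgroups described in the text lay close to it.

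The members spanned a wide range of abundance. Mean CPM over all libraries ran from 2.04 to 17050 with a median of 9.46. There were 36 members between 2 and 4 CPM, 47 between 4 and 10, 57 between 10 and 100, 14 between 100 and 1000, 9 between 1000 and 10000, and 2 above 10000. Those are CPM by column total; the levels per group that follow are TMM-scaled. On that scale the median member stood at 14.8, 14.7 and 13.6 CPM in DMSO at 0, 3 and 6 h, and at 4.66, 4.72 and 4.18 CPM in DAPT. No member had a group mean under 1 CPM in DMSO (0 of 165 at each time), while 13, 13 and 15 did in DAPT. The lower quartile of the members was 6.83, 6.37 and 5.73 CPM in DMSO and 1.91, 2.24 and 1.84 CPM in DAPT. Over both treatments together, 463 of the 5940 values of the members (7.79%) were under 10 counts, a share that was not split by treatment. The lowest expected count was 0.48, in TRINITY_DN19701_c0_g1. Transcript lengths were not used here, so an order of CPM between genes is an order of reads and not of transcript numbers.

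At 0 h, 105 of the 165 members had all 6 DAPT libraries below all 6 DMSO libraries on the centred scale, beside 3.2% of all 12410 genes. The corresponding count was 106 at 3 h (3.06% of all genes) and 87 at 6 h (2.05%), and 58 members were separated at all 3 times (1.09%). Without replicate 2 of DMSO at 0 h and replicate 4 of DMSO at 6 h, the counts were 127 at 0 h (4.11% of all genes), 101 at 6 h (2.75%) and 73 at all 3 times (1.42%). In edgeR's quasi-likelihood F test, 160, 138 and 132 members were called lower at 0, 3 and 6 h, against 5.64%, 4.85% and 3.94% of the 12253 genes tested. The rule used the same contrasts, so nothing is read from these counts.

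The 6 members with the most reads were spread over a wide range within each group. For TRINITY_DN2787_c2_g1, the member with the most reads, the lowest, median and highest DMSO libraries were at 9342, 21579 and 33741 CPM at 0 h, and the DAPT libraries at 7075, 7994 and 14039 CPM. At 3 h they were at 15881, 18842 and 46516 CPM in DMSO and 4938, 8274 and 17634 CPM in DAPT, and at 6 h at 18596, 26232 and 36619 CPM in DMSO and 8144, 11224 and 21936 CPM in DAPT. The groups overlapped at all 3 times, although 4, 5 and 5 of the 6 DAPT libraries were below every DMSO library. Its mean in DMSO was 2.30-fold that in DAPT at 0 h, 2.33-fold at 3 h and 2.21-fold at 6 h.

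TRINITY_DN458_c0_g1 showed the widest spread of the 6. Its DMSO libraries at 0 h were at 672, 4198 and 9062 CPM (lowest, median, highest) and its DAPT libraries at 507, 842 and 1223 CPM. By 6 h the DMSO libraries stood at 1378, 4015 and 10594 CPM and the DAPT libraries at 479, 1225 and 4264 CPM. The lowest DMSO libraries thus lay among the DAPT libraries at both times, and the mean in DMSO was 4.86-fold that in DAPT at 0 h, 3.44-fold at 3 h and 2.81-fold at 6 h. The remaining 4 genes, TRINITY_DN744_c0_g1, TRINITY_DN38319_c0_g1, TRINITY_DN2288_c0_g1 and TRINITY_DN2275_c0_g1, had median levels of 20764, 9965, 6700 and 5065 CPM in DMSO at 0 h and of 5016, 2913, 1671 and 1127 CPM in DAPT. Their groups overlapped at 0 h and 3 h; at 6 h only TRINITY_DN38319_c0_g1 and TRINITY_DN2288_c0_g1 of the 6 had every DAPT library below every DMSO library.

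**Figure D3:**
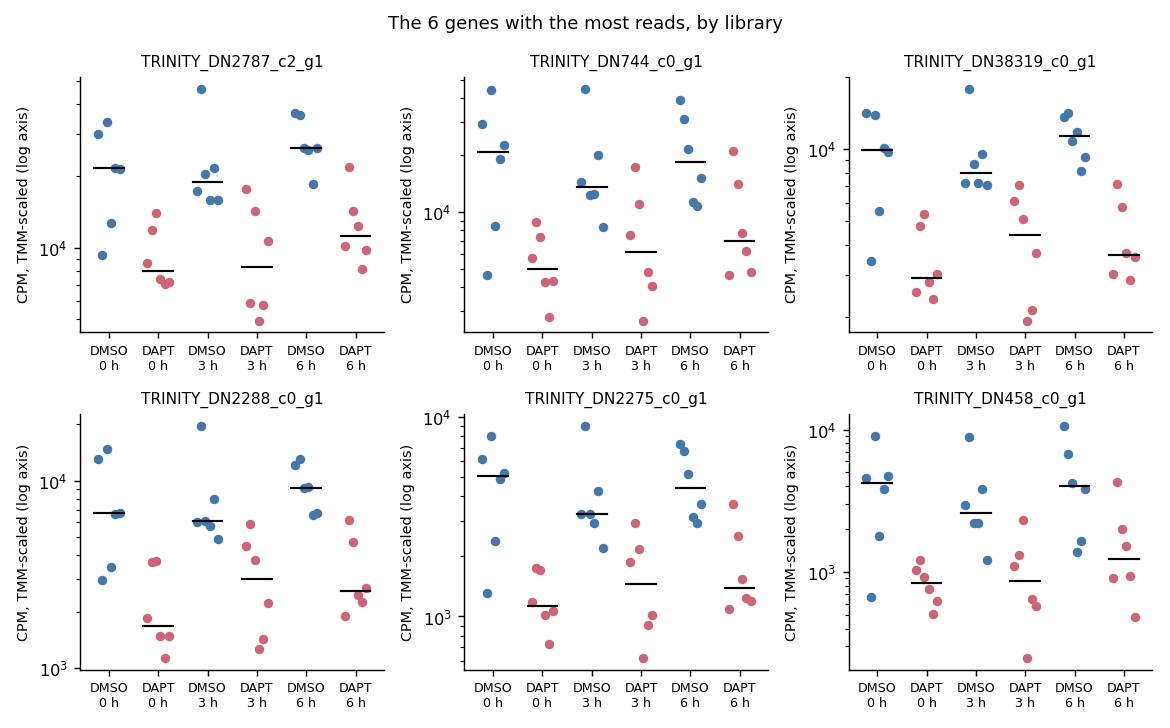
TMM-scaled CPM (log axis) of the 6 members with the most reads in each library; points are replicates 1 to 6 from left to right in each group and horizontal lines are group medians. In DMSO at 3 h replicate 2 is the highest point of all 6 genes, for example at 46516 CPM for TRINITY_DN2787_c2_g1 and 8899 CPM for TRINITY_DN458_c0_g1.

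Some libraries stood out alike in all 6 of these genes: in DMSO at 3 h replicate 2 was the highest for each of them, and in DMSO at 0 h replicate 2 was the lowest, as the plot of the most-read genes shows. This did not hold in every group. In DAPT at 3 h replicate 2 was the highest for TRINITY_DN744_c0_g1, at 17249 CPM, but below the median for TRINITY_DN2787_c2_g1, at 5873 CPM. The spread was larger than that of all genes both among members with few reads and among members with many. Members between 2 and 8 CPM had a median within-group SD of 0.54 in DMSO and 0.48 in DAPT (log2 units, 77 genes). All 4688 genes of that abundance had 0.38 and 0.40. Members with a mean of at least 64 CPM had a median within-group SD of 0.65 in DMSO and 0.67 in DAPT (log2 units, 34 genes), beside 0.35 and 0.37 for all 1367 genes of that abundance. Over all 165 members the median SD was 0.55 in DMSO and 0.52 in DAPT, beside 0.36 and 0.37 for the 10405 genes and 0.53 and 0.51 for the 64 genes beyond the deeper border.

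Other members were steady. TRINITY_DN1391_c0_g1 had the smallest within-group SD of all members (0.22 log2 units). Its DMSO libraries were at 75.1, 91.1 and 104.5 CPM at 0 h (lowest, median, highest), 86.6, 91.1 and 98.6 CPM at 3 h, and 60.4, 75.9 and 96.6 CPM at 6 h. Its DAPT libraries were at 25.6, 30.1 and 36.2 CPM, then 23.4, 26.4 and 34.8 CPM, then 20.1, 29.2 and 36.3 CPM. No DAPT library reached the lowest DMSO library at any time, and the means in DMSO were 3.04-fold, 3.27-fold and 2.64-fold those in DAPT.

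TRINITY_DN13382_c0_g1 had nearly the same reduction at each time. Its DMSO libraries were at 8.26, 11.9 and 14.4 CPM at 0 h and its DAPT libraries at 3.23, 3.81 and 4.60 CPM. At 6 h they were at 7.29, 11.8 and 13.8 CPM and at 2.78, 3.16 and 4.89 CPM. The groups were separate at all 3 times, and the centred differences were -1.42, -1.47 and -1.44. TRINITY_DN37542_c0_g1, with the narrowest range of all members, had differences of -1.15, -1.15 and -1.19.

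By the rule, members with few reads were lower at each time too, and their levels are given as a description. TRINITY_DN5847_c0_g1, which had the lowest mean CPM of the members, stood at 1.54, 3.53 and 5.00 CPM in DMSO at 0 h and at 0.542, 0.721 and 1.07 CPM in DAPT. TRINITY_DN40136_c0_g1 stood at 2.36, 3.88 and 4.51 CPM in DMSO and at 0.667, 0.808 and 0.988 CPM in DAPT at that time. Neither gene's groups overlapped at any of the 3 times. At such levels the added 0.5 CPM shrinks a difference: for TRINITY_DN5847_c0_g1 the difference that the rule used was -1.59 at 0 h, while the ratio of the means was 4.40-fold.

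The deepest average reductions belonged to TRINITY_DN2447_c0_g1, TRINITY_DN10831_c0_g1 and TRINITY_DN742_c0_g2. On the scale of the rule, each was kept inside the set by its difference at 6 h (-1.66, -1.63 and -1.54). At these low levels the added 0.5 CPM shrinks a difference. Without it, their DAPT means at 6 h were 27.5%, 22.5% and 25.4% of the DMSO means (TMM-scaled), below the 29.7% of the deeper border. TRINITY_DN2447_c0_g1 stood at 7.90, 13.8 and 20.2 CPM in DMSO at 0 h and at 0.629, 1.89 and 2.36 CPM in DAPT. At 6 h its DMSO libraries were at 6.02, 15.8 and 21.7 CPM and its DAPT libraries at 2.31, 3.80 and 6.72 CPM, so that the groups, separate at 0 h and 3 h, overlapped. The ratio of means went from 8.09-fold at 0 h to 6.91-fold at 3 h and 3.63-fold at 6 h. TRINITY_DN10831_c0_g1 had ratios of 8.89-fold, 8.60-fold and 4.44-fold, with separate groups at each time. TRINITY_DN742_c0_g2 had ratios of 6.01-fold, 7.96-fold and 3.93-fold, and its groups overlapped at 6 h. There replicate 4 of DMSO was at 1.447 CPM and the other DMSO libraries at 5.39 to 6.24 CPM. Whether this gene would stay in the set without that library was not tested.

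Changes over time within a treatment were tested over all genes with edgeR. They are not free of the rule: a change in DAPT is the change in DMSO plus the change of the difference, and genes that came back to within 1 log2 unit of the control by 3 h or 6 h were left out of the set. The counts for the members are therefore a description of genes selected to remain low. In DMSO, 0 of the 165 members passed at 3 h against 0 h (0% of all 12253 genes) and 0 passed at 6 h against 0 h (0%). At an unadjusted p under 0.05, 5 members (3.03%) differed at 3 h and 14 (8.48%) at 6 h, against 9.25% and 11.2% of all genes. The median log2 change of the members in DMSO was -0.02 at 3 h and -0.03 at 6 h, beside -0.01 and -0.02 for all genes. DESeq2 called 1 member in DMSO at 6 h, TRINITY_DN7709_c0_g1 (log2 fold change 0.79, adjusted p = 0.0493), beside 10 genes in all (0.0816%), and edgeR did not call it (adjusted p = 0.322). limma-voom called 0 members at both times.

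In the DAPT animals, where the rule had removed genes that recovered, 0 of 165 members passed at 3 h against 0 h (0% of all genes), with 7 (4.24%) at an unadjusted p under 0.05 against 8.66% of all genes. DESeq2 called 0 members and 45 genes in all (0.367%), and limma-voom called 0 of either. The median log2 change was 0.14, with 102 members above 0 and 63 below, beside -0.01 for all genes. Its sign depended on the scaling, since with library totals alone the median was -0.13 for the members and -0.28 for all genes. At 6 h against 0 h the median change was 0.03, beside -0.03 for all genes, with 84 members above 0 and 81 below, and with library totals alone it was -0.14 beside -0.21.

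At 6 h 1 member passed, beside 0.539% of all genes (66 of 12253). The count over all genes was itself unstable, at 117 without replicate 4 of DMSO at 6 h and from 0 to 265 with 1 replicate number left out (0 without 3, 4 or 6, 1 without 5, 34 without 2 and 265 without 1). TRINITY_DN37351_c0_g1 fell further in the DAPT animals between 0 h and 6 h. Its DAPT libraries were at 1.46, 1.73 and 2.15 CPM at 0 h (lowest, median, highest), at 1.16, 1.34 and 1.85 CPM at 3 h, and at 0.577, 0.823 and 1.44 CPM at 6 h, while its DMSO libraries had medians of 5.11, 3.96 and 4.89 CPM. All 6 DAPT libraries of 6 h were below all 6 of 0 h. The log2 fold change was -0.93 (SE 0.21, edgeR adjusted p = 0.0322). The call did not survive leaving out replicate 2, 3, 4, 5 or 6, with edgeR adjusted p between 0.0708 and 0.348, nor scaling by library totals (adjusted p = 0.109). The log2 fold change itself was -0.74 to -1.09 without those replicates and -1.10 with library totals.

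DESeq2 called 4 members between 0 h and 6 h in DAPT (2.42%), a share near that of all genes (275, 2.24%). Besides TRINITY_DN37351_c0_g1 they were TRINITY_DN47936_c0_g1 (log2 fold change -0.97, DESeq2 adjusted p = 0.0131), TRINITY_DN2447_c0_g1 (1.31, DESeq2 adjusted p = 0.0223) and TRINITY_DN1503_c0_g1 (0.68, DESeq2 adjusted p = 0.0278). For TRINITY_DN2447_c0_g1 the edgeR estimate was 1.30 (SE 0.37) with an adjusted p of 0.0839, which misses the threshold. Its DAPT libraries, at 0.629 to 2.36 CPM at 0 h and 2.31 to 6.72 CPM at 6 h, overlapped only at the edge of both ranges. In 6 h without DAPT its median remained below the lowest control library.

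The change of the DAPT difference over time was above 0 for 119 of the 165 members from 0 h to 3 h and for 103 from 0 h to 6 h. Single members ran from -0.85 to 1.21 and from -1.13 to 1.86. The median change was 0.18 from 0 h to 3 h and 0.20 from 0 h to 6 h on the log2 scale, beside 0.03 and -0.01 for all genes. The median SE of a single member was 0.46 and 0.45. No member passed the edgeR test of that change (0 of 165; smallest adjusted p = 1.00 and 0.956), and 1 and 6 members (0.606% and 3.64%) had an unadjusted p under 0.05, beside 1.22% and 3.89% of all genes. The rule limits how far the members' differences can move, so these values are only a description.

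The members with the largest opposite courses show what lies behind the medians. TRINITY_DN538_c1_g1 had centred differences of -1.26, -2.02 and -2.70 from 0 h to 6 h. Its DMSO libraries stood at 29.0, 62.2 and 103.5 CPM at 0 h and at 62.5, 71.1 and 103.8 CPM at 6 h, while its DAPT libraries stood at 10.1, 24.7 and 50.0 CPM and then at 3.38, 10.05 and 32.4 CPM. The groups overlapped at 0 h and were separate at 6 h. TRINITY_DN538_c0_g1, which carries the same assembly number, had differences of -1.26, -1.53 and -2.32, and its DAPT median went from 40.5 CPM at 0 h to 20.4 CPM at 6 h. The change in DAPT did not pass the test for either gene (edgeR log2 fold change -0.86 with SE 0.47 and adjusted p = 0.424 for the former, -0.70 with SE 0.40 and adjusted p = 0.439 for the latter).

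TRINITY_DN40334_c0_g1 and TRINITY_DN39002_c0_g1 took the opposite course, with differences of -2.14, -1.91 and -1.06 and of -2.11, -1.87 and -1.15. In DMSO at 0 h the libraries of TRINITY_DN40334_c0_g1 fell into separate ranges, with replicates 1 to 3 between 69.3 and 93.0 CPM and replicates 4 to 6 between 3.98 and 11.1 CPM. The DAPT libraries at that time lay at 2.79, 4.88 and 11.1 CPM. TRINITY_DN39002_c0_g1 was split in the same way in DMSO at 0 h, with 21.5 to 26.8 CPM in replicates 1 to 3 and 3.23 to 4.59 CPM in replicates 4 to 6. By 6 h the DMSO medians were 19.4 and 6.85 CPM, and the change in DMSO from 0 h to 6 h did not pass the test for either gene (edgeR log2 fold change -1.23 with SE 0.55 and adjusted p = 0.419 for the former, -1.11 with SE 0.51 and adjusted p = 0.43 for the latter). The DAPT medians at 6 h were 9.90 and 3.19 CPM, so the smaller difference went with a lower control median and a higher DAPT median for both genes, neither of them past the test.

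**Figure D4:**
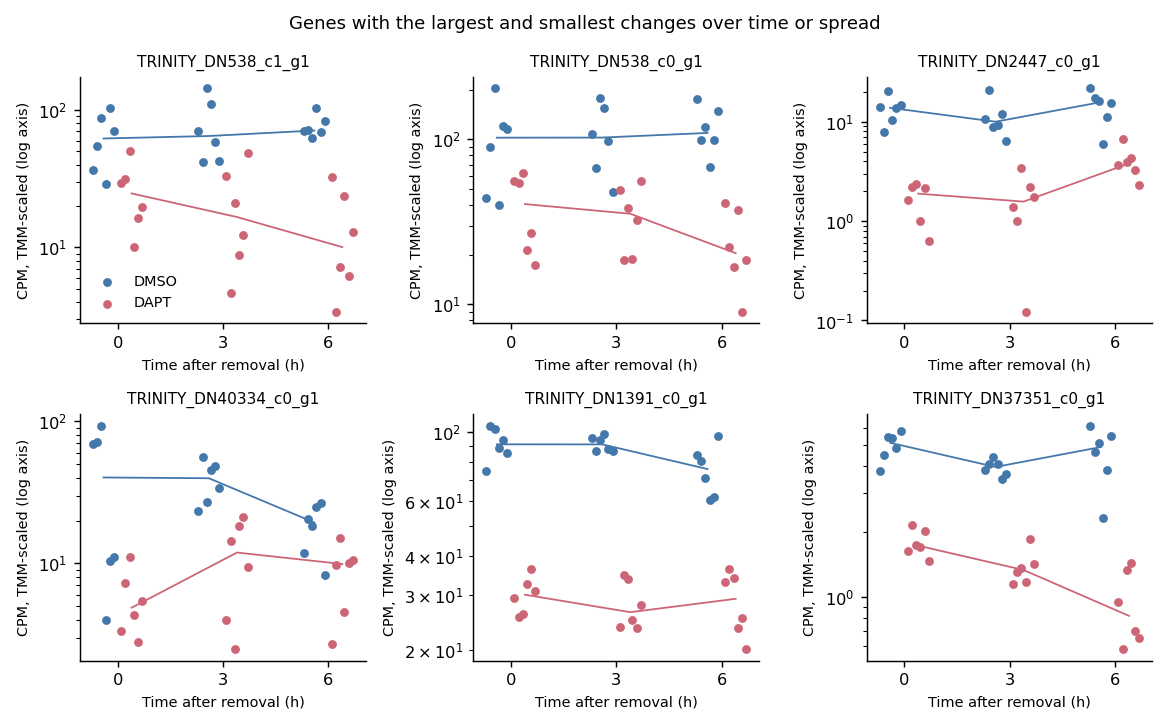
TMM-scaled CPM (log axes) in each library against time after removal of DAPT, for 6 members with the largest or smallest changes over time or spread; points are libraries and lines join group medians. For TRINITY_DN538_c1_g1 the DAPT median goes from 24.7 to 10.05 CPM, for TRINITY_DN2447_c0_g1 it goes from 1.89 to 3.80 CPM, and for TRINITY_DN1391_c0_g1 the groups stay apart at every time.

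Beyond the difference that defined them, the members varied together between replicates. The level of each gene was taken relative to the mean of its group, which removes treatment and time, and correlated between genes over the 18 DMSO libraries. The median correlation over pairs of members was 0.23 (quartiles -0.19 and 0.63), beside 0.01 for pairs of all genes with a mean CPM of at least 2 and 0.55 for the 64 genes beyond the deeper border. In the 18 DAPT libraries, it was 0.22 for the members, 0.01 for all genes and 0.33 for the 64 genes. These are descriptions over pairs of genes that share the same libraries. Among the members, 33.9% of pairs were above 0.5 and 9.45% below -0.5 in DMSO. For all genes with a mean CPM of at least 2, these shares were 17.5% and 16.8%. Strongly negative pairs were thus a smaller share among the members than among all genes. Some were still present, so the members did not vary as 1 block.

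Average-linkage clustering of these correlations, made after seeing the data, divided the members into subgroups of 114 and 51 genes. In the DMSO libraries that formed them, the median correlation was 0.58 within the larger subgroup, 0.54 within the smaller and -0.23 between them. In the DAPT libraries, which were not used to form them, it was 0.36, 0.43 and 0.04. There 95 of the 114 and 49 of the 51 genes correlated more with their own subgroup than with the other. Clustering the DAPT libraries instead placed 137 of the 165 genes in the same subgroup. The same division was not made of other genes, so these counts have no background. Whether such subgroups are particular to the members was not tested. The subgroups differed little in what the rule used, with median differences of -1.59, -1.47 and -1.47 in the larger and -1.48, -1.50 and -1.40 in the smaller, and median levels of 12.05 and 6.61 CPM by column total. All 6 of the most-read members belonged to the larger one.

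The subgroups stood apart from each other in single libraries. The median deviation of the larger subgroup from its group mean was -0.70 log2 units in replicate 2 of DMSO at 0 h and -0.71 in replicate 4 of DMSO at 6 h, and it reached 0.49 in replicate 2 of DMSO at 3 h. The smaller subgroup was split in DMSO at 0 h, with 0.72, 0.55 and 0.53 in replicates 1 to 3 and -0.67, -0.33 and -0.49 in replicates 4 to 6. In replicate 4 of DMSO at 6 h the smaller subgroup was high (0.54) while the larger was low. Without that library and replicate 2 of DMSO at 0 h, 158 of the 165 genes kept their subgroup, and the median correlation between members in DMSO was 0.28 in place of 0.23. Whether these shifts reflect the animals, their handling or the libraries was not tested.

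**Figure D5:**
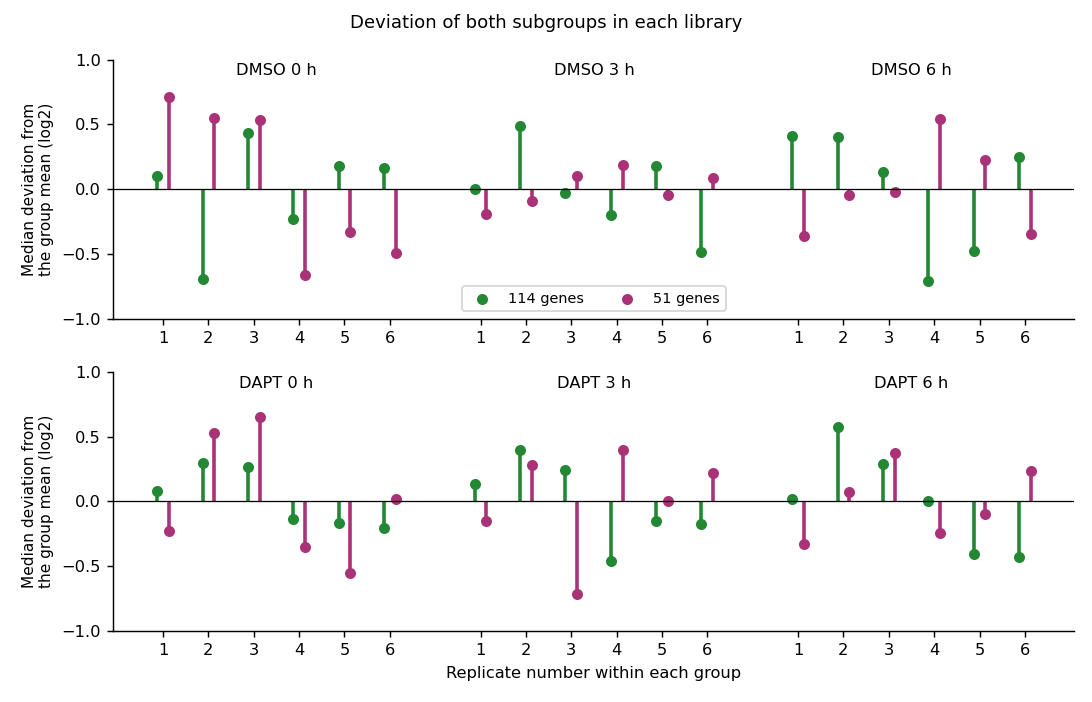
Median deviation from the group mean (log2 units) of the 114 genes of the larger subgroup and the 51 genes of the smaller subgroup in each of the 36 libraries, by replicate number within each group. The larger subgroup is lowest in replicate 4 of DMSO at 6 h (-0.71) and replicate 2 of DMSO at 0 h (-0.70), and in DMSO at 0 h the smaller subgroup is positive in replicates 1 to 3 and negative in replicates 4 to 6.

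The assembly numbers hold a last feature that the rule did not use. An identifier names a number and, within it, a cluster and a gene. Genes of 1 cluster were grouped in the assembly and may share sequence, which was not checked. Reads may then be divided between them by the authors' estimation. Of the 165 members, 20 (12.1%) shared a cluster with another deposited gene, beside 483 of the 10405 genes with a mean CPM of at least 2 (4.64%). Whether reads were so divided was not tested, and the counts of these 20 members are uncertain in that respect. TRINITY_DN458_c0_g1 and TRINITY_DN458_c0_g3 are both members, at mean levels of 2592 and 67.6 CPM by column total, and correlated at 0.97 over the 18 DMSO and 0.87 over the 18 DAPT libraries. Another gene of that cluster, TRINITY_DN458_c0_g2, lay beyond the deeper border, with differences of -2.28, -2.29 and -2.21.

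Assembly numbers with at least 2 members were 6, holding 13 members, and all members of 1 number fell in the same subgroup. Their time courses were alike in several cases. For TRINITY_DN6035_c0_g1 and TRINITY_DN6035_c1_g1 the differences were -1.71, -1.65 and -2.10 and -1.49, -1.68 and -2.15, and for TRINITY_DN2705_c0_g1 and TRINITY_DN2705_c1_g1 they were -1.01, -1.30 and -2.01 and -1.46, -1.79 and -2.22. Like the pair of number DN538, these were lowest at 6 h. Cluster neighbours outside the set often had smaller differences than the member or none, while others lay beyond the deeper border. TRINITY_DN1439_c0_g1, which shares a cluster with the member TRINITY_DN1439_c0_g2, had differences of -0.17, 0.07 and 0.06 at 5802 CPM by column total. TRINITY_DN1000_c0_g2 was higher after DAPT (0.62, 0.38 and 0.38), while the member TRINITY_DN1000_c0_g1 was at -1.98, -2.25 and -1.62.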

How the data were processed

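Whole Hydra vulgaris were profiled by strand-specific mRNA sequencing in 36 libraries, 6 per group. Per the labels, adapter, polyA and splice leader sequence was removed from reads; RSEM, Bowtie2 and DESeq2 1.18.1 are named in the submitters' processing notes with no role stated. The authors deposited expected counts, estimated read numbers that need not be whole, for 12410 genes. The table holds no 0 (lowest value 0.09), so genes absent from a library, and the full depth of the libraries, were not analysed here. Counts were rounded, filtered with filterByExpr (12253 genes kept, 157 removed, no member among them), scaled with TMM and fitted once over 6 group means with edgeR 4.0.16 in R 4.3.3. Calls required a Benjamini-Hochberg adjusted p under 0.05 over all tested genes; SE follow from the F statistic. The libraries are called biological replicates in the labels, with no statement of separate cultures, so p-values measure the spread between these samples.

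The members, the lists and the borders were chosen with earlier results of these data known. Named genes are those with the most and fewest reads, the deepest, most and least variable differences, the largest and smallest spread, those passing a time test, and those nearest to each border. TRINITY_DN47936_c0_g1, TRINITY_DN1503_c0_g1, TRINITY_DN7709_c0_g1, TRINITY_DN15726_c0_g1, TRINITY_DN19701_c0_g1 and the cluster partners were named after their values were seen. DESeq2 1.42.0, limma-voom (limma 3.58.1), other scalings, filters and pseudocounts, a replicate block and left-out replicates were alternatives. On simulated counts for DMSO at 6 h against 0 h (12125 genes), edgeR recovered 63 of 100 genes changed 2-fold and 93 of 100 changed 4-fold, with 9 false among 165 calls.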

Additional observations from a re-analysis of the deposited data

Results flagged for a closer look

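Libraries far from the other 5 of their group were found in 15 of the 216 checks made (32 named genes and 4 summary measures in 6 groups). For independent, normally distributed values about 1 in 20, or 10.8, would be found by chance. The checks were not independent, and some genes were named for their spread, so nothing is read from the count against that number. The clearest pattern was replicate 2 of DMSO at 3 h, which was far above the other libraries in all 6 of the most-read members: 46516 CPM for TRINITY_DN2787_c2_g1 (others 15881 to 21652), 44755 CPM for TRINITY_DN744_c0_g1 (others 8350 to 19918), 17898 CPM for TRINITY_DN38319_c0_g1 (others 7074 to 9571), 19588 CPM for TRINITY_DN2288_c0_g1 (others 4879 to 7968), 8983 CPM for TRINITY_DN2275_c0_g1 (others 2196 to 4267) and 8899 CPM for TRINITY_DN458_c0_g1 (others 1214 to 3829). These genes vary together, so they are not 6 separate events.

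The others were scattered over genes and groups. TRINITY_DN742_c0_g2 was at 1.447 CPM in replicate 4 of DMSO at 6 h (others 5.39 to 6.24) and at 1.935 CPM in replicate 3 of DAPT at 0 h (others 0.723 to 1.09). TRINITY_DN10831_c0_g1 was at 9.245 CPM in replicate 2 of DMSO at 0 h (others 3.63 to 5.08), TRINITY_DN5481_c0_g1 at 79.07 CPM in replicate 1 of DAPT at 0 h (others 43.3 to 56.3), and TRINITY_DN14656_c0_g1 at 2.645 CPM in replicate 5 of DAPT at 0 h (others 1.26 to 1.73). TRINITY_DN37542_c0_g1 was low in replicate 4 of DAPT at 3 h, at 0.7946 CPM (others 1.21 to 1.39), and TRINITY_DN40136_c0_g1 was high in replicate 3 of DAPT at 6 h, at 1.231 CPM (others 0.678 to 0.870). Outside the members, TRINITY_DN15895_c0_g1 was at 3.817 CPM in replicate 3 of DAPT at 0 h (others 0.505 to 1.59) and TRINITY_DN39863_c0_g1 at 13.01 CPM in replicate 6 of DMSO at 3 h (others 19.6 to 23.3).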

How the results depend on the processing

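The number of members was 108 with a mean CPM of at least 5, and it was 114 to 185 under other pseudocounts, scalings, centrings and floors, of which 92 were shared with the 165 at a pseudocount of 2. It ranged from 134 to 167 when each replicate number was left out. With a pseudocount of 2 the median difference at 3 h was -1.17. Members called between 0 h and 6 h in DAPT numbered 0 with library totals (19 of all genes, 0.155%), 4 with DESeq2 (275, 2.24%), and 2 without replicate 2 of DMSO at 0 h and replicate 4 of DMSO at 6 h (137, 1.12%), a choice made after seeing the data, the added one being TRINITY_DN15726_c0_g1 (log2 fold change 0.86, edgeR adjusted p = 0.0492). They ranged from 0 to 1 with 1 replicate number left out: 0 without 3, 4, 5 or 6, and, without 2, TRINITY_DN47936_c0_g1 (edgeR adjusted p = 0.0414) in place of TRINITY_DN37351_c0_g1, whose adjusted p over these settings was 0.0206 to 0.348. In DMSO at 6 h against 0 h, DESeq2 called 1 member, beside 10 of all genes (0.0816%). The cause of these shifts was not tested. With library totals the median over all genes shifted by -0.14 to -0.27 log2 units over time and by 0.11 and 0.12 between treatments at 0 h and 6 h.

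With the replicate number as a block, 0 members passed between 0 h and 6 h in DAPT (TRINITY_DN37351_c0_g1, edgeR adjusted p = 0.0577) beside 53 of all genes, and members called lower in DAPT numbered 160, 144 and 136 beside 697, 584 and 471 of all genes. Whether the numbers pair the samples is not clear. Of the same-numbered pairs of DMSO and DAPT libraries, 11 of 18 correlated above 0.1 (median 0.21, from -0.63 to 0.57). Among pairs with different numbers, 37 of 90 did (median -0.02). The median was thus higher for the same number, but only 1 of 18 DMSO libraries correlated best with its own number. The simulation drew its changed genes from all tested genes. The members had a larger median within-group SD, at 0.55 in DMSO and 0.52 in DAPT, than the 10405 genes with a mean CPM of at least 2 (0.36 and 0.37). Recovery at the spread of the members was not tested, so changes over time of 2-fold as well as smaller ones may be missed among them.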

Other observations

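TRINITY_DN5481_c0_g1 had the largest within-group SD of all members (1.10 log2 units), and its spread lay at 6 h. At 0 h its DMSO libraries were between 103 and 211 CPM and its DAPT libraries between 43.3 and 79.1 CPM, and at 3 h between 99.6 and 189 CPM and between 35.4 and 85.0 CPM, with no overlap. At 6 h the lowest DMSO libraries were replicates 4 and 5, at 8.01 and 37.2 CPM, and the DAPT libraries of replicates 4, 5 and 6 were at 14.3, 7.65 and 1.503 CPM, while the other 3 DAPT libraries were at 50.8 to 77.7 CPM. The change over time did not pass the edgeR test in DMSO (log2 fold change -0.65, adjusted p = 0.609) or in DAPT (-0.66, adjusted p = 0.616). TRINITY_DN3114_c0_g2 combined a high level with separate groups at all 3 times: its DMSO medians were 2022, 1838 and 2009 CPM at 0, 3 and 6 h and its DAPT medians 377, 545 and 513 CPM, and the ratio of means went from 5.04-fold at 0 h to 3.57-fold at 3 h and 3.29-fold at 6 h. Its cluster partner TRINITY_DN3114_c0_g1, at a mean of 131 CPM by column total, had smaller differences of -1.18, -0.79 and -0.71.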
